A study of Homo sapiens with 4 samples.

Results

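The proteasome is the barrel-shaped protease that degrades ubiquitin-tagged proteins in every nucleated cell. Its 20S core is a stack of alpha rings and beta rings, and 3 of the beta subunits, PSMB5, PSMB6 and PSMB7, carry the constitutive catalytic sites. The 19S cap recognizes, unfolds and feeds substrates into the core, and the PA28 activator can open the core in its place. In cells exposed to interferon, and in many blood cells without it, PSMB8, PSMB9 and PSMB10 take the places of PSMB5, PSMB6 and PSMB7 and form the immunoproteasome, which shapes the peptides shown on MHC class I molecules.

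The genes described here are the protein-coding rows of the count table whose symbol is PSM, followed by a letter from A to G and a number. The rule found 48 genes among 58037 rows, 19582 of them protein-coding. RNA-Seq was conducted on the human AML line OCI-AML3, whose heterozygous NPM1 and DNMT3A mutations and homozygous NRAS mutation all 4 libraries share. Cells were transfected with a control guide (sgNeg in the labels, sgRNA Ctrl in the paper) or with sgNPM1A, the CRISPR guide directed at the mutant NPM1 allele, and were harvested at 72 h (day 3), with 2 libraries per condition. The question was which mRNAs differ after CRISPR editing of mutant NPM1 (mtNPM1 KO). It is a single cell line, the cells are not stated to be a sorted or clonal population, and the libraries are called biological replicates in the paper without saying whether they came from separate transfections, so the p-values measure the spread between these libraries. In bulk RNA, a change in the mix of cells and a change per cell cannot be told apart.

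Total counts were between 25069484 and 28276391 per library, and 3 counts correspond to 0.108 to 0.118 CPM (counts scaled to library size). NPM1 (chr5:171387116-171410900, GRCh38), whose counts sum the mutant and wild-type alleles, stood at 1319 and 1385 CPM in the sgNeg and at 1189 and 1132 CPM in the sgNPM1A libraries (log2 fold change -0.22, SE 0.069, adjusted p = 0.0360), a fold of 0.858 that did not reach the threshold used below. The summed CPM of 6 myeloid markers was 1334 and 1317 in sgNeg against 4245 and 4993 in sgNPM1A. LYZ alone held 271 and 215 CPM of it in sgNeg and 2643 and 3367 CPM in sgNPM1A. Of the 6, 5 rose (LYZ, CSF3R, MPO, ELANE and ANPEP), where 10.5% of all tested genes were called higher by the rule below. For 5 monocyte and macrophage markers the summed CPM was 46.2 and 52.9 against 85.4 and 96.2, with ITGAM and CSF1R called higher. The summed CPM of 6 B and T cell markers was 1.29 to 2.05 in all libraries, with MS4A1, CD3D and CD3E at 0, and that of 5 erythroid and platelet markers was 0.118 to 0.684, where HBB was at 0 and PPBP rose from 2 and 2 counts to 11 and 16. The part of these marker differences in the proteasome results was not tested.

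Proteasome mRNA as a whole moved little. The 48 genes took between 0.635% and 0.646% of all counts in the 4 libraries, and their summed CPM was 6258 and 6382 in sgNeg and 6485 and 6522 in sgNPM1A. Of the 48, 46 were tested. PSMA8, the testis alpha subunit, had 0 counts in every library, and PSMB11, the thymus catalytic subunit, had 1 count in a single sgNeg library. A gene was called when the edgeR adjusted p was under 0.05 and the log2 fold change was at least 0.32 in size, the size that corresponds to a fold of 0.8 in the lower direction. By this rule PSMA1 and PSMD10 rose and PSMB5 and PSMB9 fell, so that 2 of 46 were called higher where 10.5% of all 15718 tested genes were, and 2 were called lower where 10.3% were. At any fold, 8 proteasome genes passed the adjusted p in the higher and 3 in the lower direction, where 26.0% of all tested genes passed in either direction. These counts were 5 and 3 without sgNeg replicate 2, 1 and 2 without sgNPM1A replicate 1, and 0 and 1 without sgNPM1A replicate 2.

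The log2 fold changes of the 46 genes ran from -0.54 to 0.40 with a median of 0.05, against a median of 0.00 over all tested genes. The sign was positive for 30 and negative for 16. With scaling by library size alone the median was 0.01 against -0.04 over all genes, and 25 genes were positive. The median size of the change, sign ignored, was 0.0817 log2 units for the proteasome genes and 0.217 for all tested genes. Most proteasome mRNAs are abundant, and abundant genes as a group changed less. Among genes with a mean above 10 CPM, the median size was 0.0839 for 43 proteasome genes and 0.158 for all 8856. In all, 4 of 46 proteasome genes (8.70%) passed the fold threshold, against 35.6% of all tested genes and 22.2% of those above 10 CPM. The values of the 2 conditions did not overlap for 25 of the 46 genes, 19 higher and 6 lower in sgNPM1A, where 63.1% of all tested genes did not overlap.

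**Figure D1:**
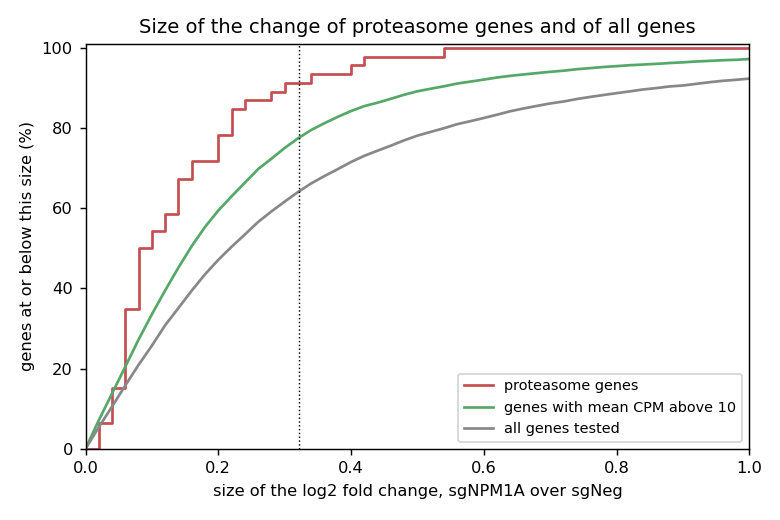
Percentage of genes (y axis) whose log2 fold change, sign ignored, was at or below the size on the x axis, for the 46 proteasome genes, the 8856 genes with a mean above 10 CPM and all 15718 tested genes. The dotted line is the fold threshold (0.32 on the log2 scale), which 8.70% of the proteasome genes and 35.6% of all tested genes passed.

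**Figure D2:**
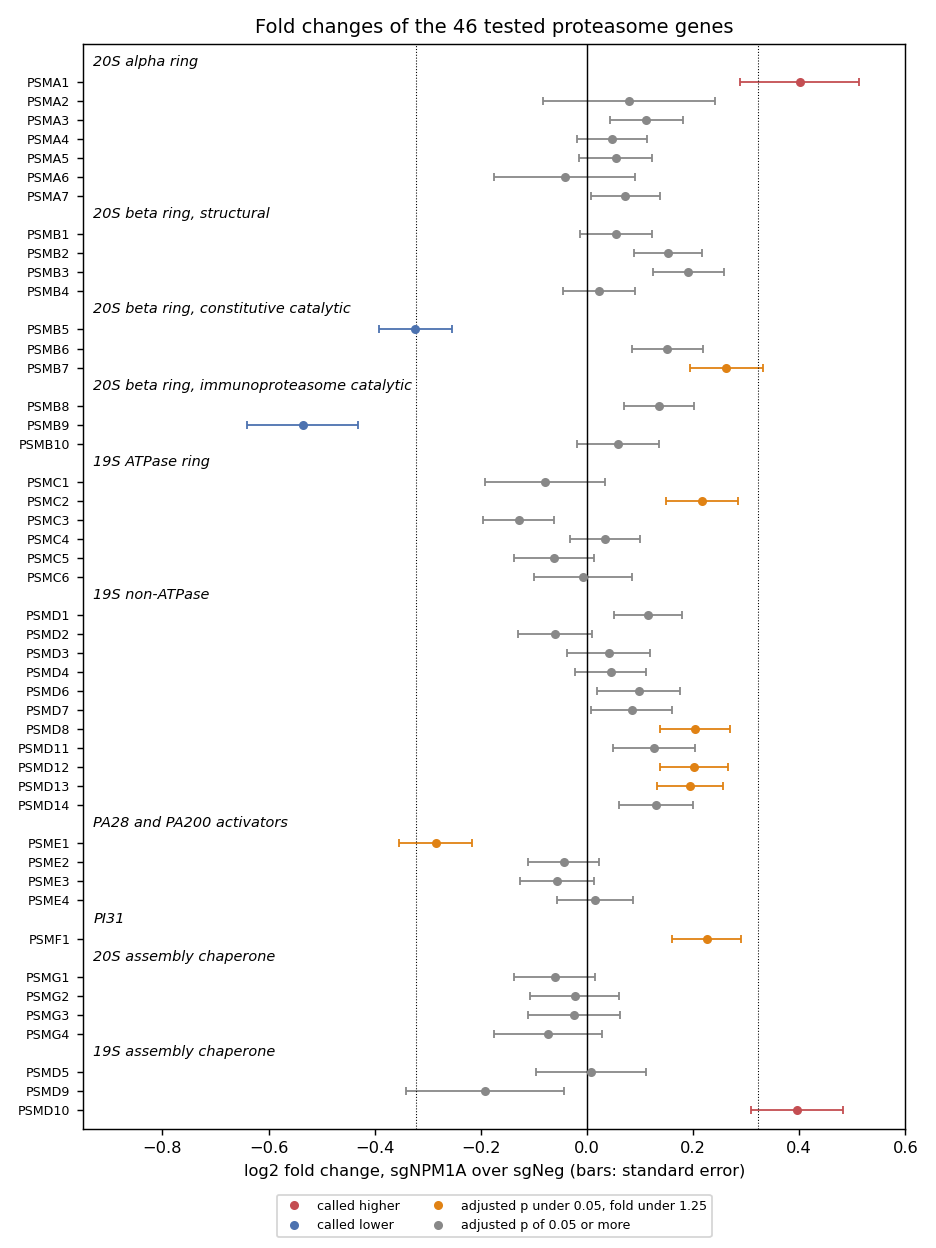
Log2 fold change of each tested proteasome gene, sgNPM1A over sgNeg, with bars of 1 standard error from edgeR, arranged by role. The dotted lines mark the fold threshold (0.32 on the log2 scale), and only PSMA1, PSMD10, PSMB5 and PSMB9 were past them with an adjusted p under 0.05.

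The alpha ring forms the gate of the core. Of its 7 tested subunits 6 had a positive fold change, with a median of 0.07, and PSMA1 (chr11:14504876-14643662) was the 1 called gene. PSMA1 stood at 14.2 and 17.2 CPM in sgNeg and at 20.7 and 20.8 CPM in sgNPM1A. The sgNPM1A libraries were nearly equal and both lay above the sgNeg libraries, which were further apart. PSMA1 rose by 0.40 on the log2 scale (SE 0.11, edgeR adjusted p = 0.0218). The call was lost without sgNeg replicate 1 (log2 fold change 0.27, adjusted p = 0.104), without sgNPM1A replicate 1 (adjusted p = 0.0535) and without sgNPM1A replicate 2 (adjusted p = 0.0674). PSMA1, PSMA2 and PSMA6 had far fewer counts than the other alpha subunits, although the assembled ring holds each subunit in equal number. PSMA2 had 100 to 122 counts and PSMA6 179 to 192 counts per library, where PSMA7 had 8337 to 9952. In the transcript models, these 3 genes share between 15.1% (PSMA6) and 21.0% (PSMA1) of their 50-base words with other gene models. How reads on shared bases were counted is not given in the sources used here. The model with which each shared the most held 0 to 3 counts, and the part of shared bases in these low counts was not tested. Fold changes of these genes are therefore uncertain. PSMA3, PSMA4, PSMA5 and PSMA7 had log2 fold changes of 0.11, 0.05, 0.05 and 0.07, and none passed the test.

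The 4 structural beta subunits, which hold no active site, had log2 fold changes of 0.05 for PSMB1, 0.15 for PSMB2, 0.19 for PSMB3 and 0.02 for PSMB4. All were positive and none passed the test, PSMB3 with an adjusted p of 0.0567 being the nearest.

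The 3 constitutive catalytic subunits did not move together. PSMB5 (chr14:23025851-23035220), which carries the chymotrypsin-like site that bortezomib and carfilzomib bind, stood at 187 and 202 CPM in sgNeg and at 159 and 152 CPM in sgNPM1A. Both sgNPM1A libraries lay below both sgNeg libraries. PSMB5 fell by 0.32 on the log2 scale (SE 0.068, edgeR adjusted p = 0.00508), a fold of 0.799 that lay just past the threshold. The call was lost without sgNeg replicate 2, where the fold threshold was not reached, and without sgNPM1A replicate 2, where the log2 fold change was -0.29 and the adjusted p = 0.108. PSMB6 (chr17:4796164-4798495), the caspase-like subunit, stood at 109 and 113 CPM in sgNeg and at 122 and 126 CPM in sgNPM1A. The groups did not overlap, and the log2 fold change of 0.15 (SE 0.067, adjusted p = 0.120) did not pass the test. PSMB7 (chr9:124353465-124415442), the trypsin-like subunit, stood at 137 and 150 CPM in sgNeg and at 170 and 175 CPM in sgNPM1A. It too was higher in both sgNPM1A libraries, with a log2 fold change of 0.26 (SE 0.069, adjusted p = 0.0166) that was under the fold threshold. The PSMB7 log2 fold change was 0.33 without sgNeg replicate 2 and 0.20 without sgNeg replicate 1. With the replicate block its edgeR adjusted p was 0.0547.

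The 3 immunoproteasome subunits did not move together either, and PSMB9 alone was called. PSMB9 (chr6:32854192-32859851), which replaces PSMB6, stood at 38.0 and 46.4 CPM in sgNeg and at 30.5 and 27.8 CPM in sgNPM1A. Both sgNPM1A libraries lay below the lower sgNeg library. PSMB9 fell by 0.54 on the log2 scale (SE 0.10, edgeR adjusted p = 0.00316), the greatest size among the 46 genes, and it was called lower under each of the 12 alternatives run. PSMB8 (chr6:32840717-32844679), which replaces PSMB5 and lies near PSMB9 in the MHC, stood at 109 and 106 CPM in sgNeg and at 117 and 119 CPM in sgNPM1A. Its log2 fold change was 0.14 (SE 0.066, adjusted p = 0.162). PSMB10 (chr16:67934506-67936850), which replaces PSMB7, stood at 40.8 and 40.5 CPM in sgNeg and at 41.6 and 43.1 CPM in sgNPM1A, with a log2 fold change of 0.06 (SE 0.078, adjusted p = 0.632). PSMB8 and PSMB10 were slightly higher in both sgNPM1A libraries and neither passed the test. PSMB10 shares 30.8% of its 50-base words with another gene model that held 108 to 120 counts, and PSMB9 shares 2.66% with PSMB8-AS1, so their counts carry that uncertainty. PSMB8-AS1 (chr6:32844086-32846500), antisense to the first bases of PSMB8, held 199 and 259 counts in sgNeg and 389 and 378 counts in sgNPM1A. Without a stated strand setting, reads of PSMB8 and of PSMB8-AS1 on their common bases cannot be told apart.

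**Figure D3:**
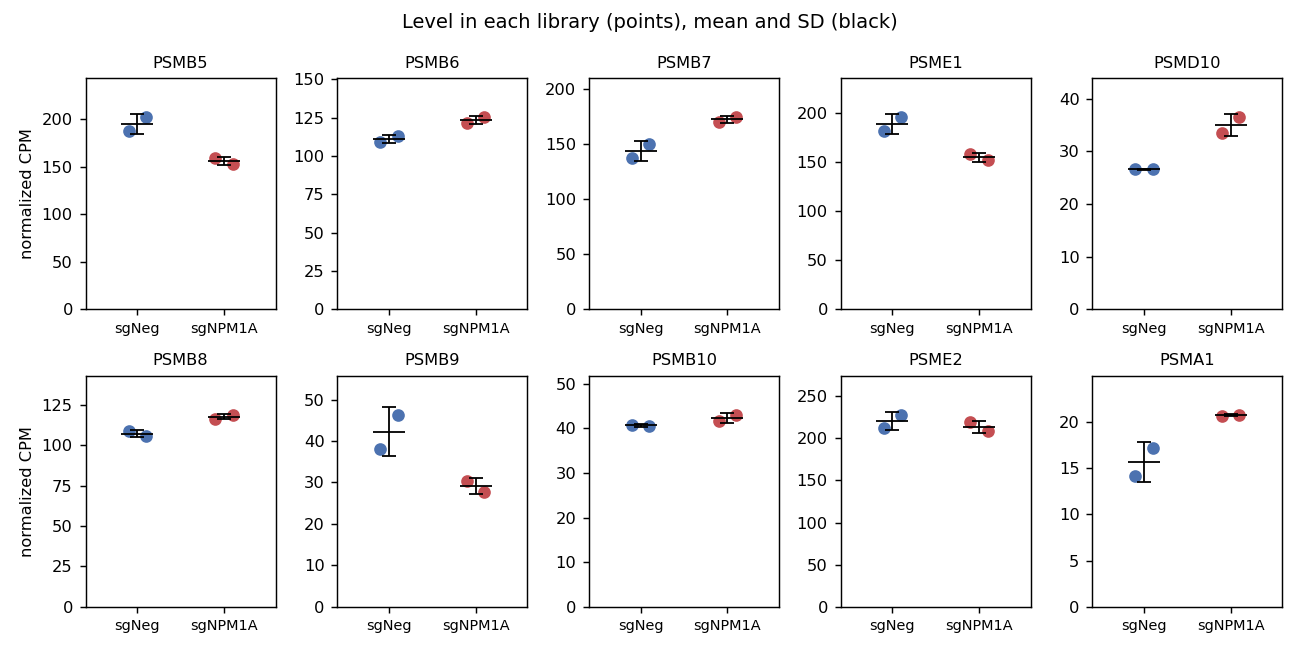
TMM-normalized CPM (y axis, from 0) of 10 proteasome genes in the 2 sgNeg and the 2 sgNPM1A libraries, each point a library, with the mean and SD in black. PSMB5 and PSMB9 are lower and PSMA1 and PSMD10 higher in both sgNPM1A libraries, while PSME2 overlaps between the conditions.

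Per length of exon, constitutive subunits stood above their immunoproteasome counterparts in the sgNeg libraries. In CPM per kilobase of exon, the mean level was 126 for PSMB5, 80.5 for PSMB7 and 76.9 for PSMB6, and 30.8 for PSMB8 and 12.6 for PSMB9, with PSMB10 between these last values. All 6 genes were thus expressed, with the immunoproteasome genes at a lower level per length. This length joins all annotated exons of a gene (3480 bases for PSMB8, 1549 for PSMB5), so it can exceed that of the mRNA. Without division by length, the PSMB8 to PSMB5 count ratio in sgNeg was 0.582 and 0.523. In sgNeg it was 0.348 and 0.410 for PSMB9 to PSMB6, and 0.297 and 0.269 for PSMB10 to PSMB7. The PSMB8 to PSMB5 ratio per kilobase was 0.259 and 0.233 in sgNeg and 0.327 and 0.348 in sgNPM1A. The PSMB9 to PSMB6 ratio was 0.151 and 0.178 in sgNeg and 0.109 and 0.0958 in sgNPM1A. The PSMB10 to PSMB7 ratio was 0.327 and 0.296 in sgNeg and 0.268 and 0.271 in sgNPM1A. Within the same libraries, the first ratio was thus higher with sgNPM1A and the other two lower, and no ratio overlapped between conditions.

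On the log2 scale of normalized counts, the PSMB8 to PSMB5 ratio was -0.86 ± 0.11 in sgNeg and -0.40 ± 0.062 in sgNPM1A (mean ± SD, n = 2), a difference of 0.46 (exact permutation p = 0.333, two-sided). The PSMB9 to PSMB6 ratio was -1.40 ± 0.17 and -2.08 ± 0.13, a difference of -0.68 with the same exact permutation p. The PSMB10 to PSMB7 ratio was -1.82 ± 0.10 and -2.03 ± 0.0099, a difference of -0.21, again with that exact permutation p. With 2 libraries against 2 this test cannot give a p below 0.333, so it cannot pass a threshold of 0.05, also without adjustment over the 3 ratios. The first ratio holds PSMB5 and the second PSMB9, both called lower, so the ratios are not independent of the calls given above.

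**Figure D4:**
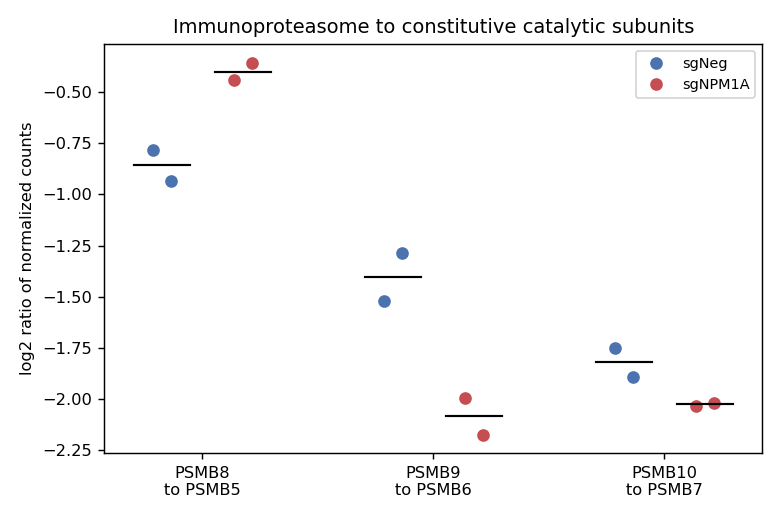
Log2 ratio of the normalized counts of each immunoproteasome subunit to its constitutive counterpart (y axis) in each library, with the mean of the 2 libraries as a line. The PSMB8 to PSMB5 ratio is higher in sgNPM1A, by 0.46, and the PSMB9 to PSMB6 and PSMB10 to PSMB7 ratios are lower, by 0.68 and 0.21.

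The 17 subunits of the 19S cap with PSM symbols had a median log2 fold change of 0.08 and none was called. In the ATPase ring, which unfolds the substrate, 2 of 6 had a positive sign (median -0.04). PSMC1, at 364 to 421 counts per library, shares 20.5% of its 50-base words with other gene models, so its fold change is uncertain. PSMC2 passed the adjusted p at 0.22 (adjusted p = 0.0362), under the fold threshold, and the others ran from -0.13 for PSMC3 to 0.03 for PSMC4. In the non-ATPase part, 10 of 11 were positive with a median of 0.12. PSMD8 (0.20, adjusted p = 0.0437), PSMD12 (0.20, adjusted p = 0.0390) and PSMD13 (0.19, adjusted p = 0.0412) passed the adjusted p, all under the fold threshold. Of all tested genes, 26.0% passed it at any fold. With DESeq2 the adjusted p was 0.0672 for PSMC2, 0.0717 for PSMD8, 0.0764 for PSMD12 and 0.0790 for PSMD13, so none of these passed. With the replicate block their edgeR adjusted p ran from 0.139 (PSMC2) to 0.19 (PSMD13). PSMD14, the deubiquitinase of the cap, had 0.13 (adjusted p = 0.198), and the ubiquitin receptor PSMD4 had 0.05 (adjusted p = 0.668). The scaffolds PSMD1 and PSMD2 differed in sign, with 0.12 and -0.06, and neither passed the test.

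Among the chaperones that build the cap, PSMD10 (gankyrin, chrX:108084207-108091542) rose. It stood at 26.6 and 26.7 CPM in sgNeg and at 33.5 and 36.6 CPM in sgNPM1A. The sgNeg libraries were nearly equal and both sgNPM1A libraries lay above them. The log2 fold change was 0.40 (SE 0.087, edgeR adjusted p = 0.00618), and the call was lost without sgNPM1A replicate 2 (0.33, adjusted p = 0.105). PSMD5 had a log2 fold change of 0.01 and PSMD9, with 145 to 176 counts per library, one of -0.19 (adjusted p = 0.387). PSMD9 shares 15.3% of its 50-base words with other gene models, so its fold change is uncertain. The 4 chaperones that build the core, PSMG1 to PSMG4, had values from -0.07 to -0.02, all negative, and none passed the test.

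Of the activators, PA28 is a ring of PSME1 and PSME2, both of which interferon raises in many cells. PSME1 (chr14:24136194-24138962) stood at 181 and 196 CPM in sgNeg and at 158 and 152 CPM in sgNPM1A. Both sgNPM1A libraries were below both sgNeg libraries, and the log2 fold change was -0.29 (SE 0.068, edgeR adjusted p = 0.0102), a fold of 0.821 that was just short of the threshold. PSME1 was called lower under scaling by library size. Its log2 fold change was -0.34 without sgNeg replicate 1 and -0.23 without sgNeg replicate 2. PSME2 (chr14:24143365-24146610) stood at 212 and 228 CPM in sgNeg and at 219 and 208 CPM in sgNPM1A. Its libraries overlapped between the conditions (log2 fold change -0.04, adjusted p = 0.678), and the sign turned to 0.0087 without sgNeg replicate 2. The log2 PSME1 to PSME2 ratio, chosen after the values were seen, was -0.23 and -0.22 in sgNeg and -0.47 and -0.46 in sgNPM1A (difference -0.24, exact permutation p = 0.333, the smallest that 2 against 2 can give). The nuclear activators PSME3 (PA28 gamma) and PSME4 (PA200) had -0.06 and 0.02, and neither passed the test. PSMF1 (PI31), which binds the core, had 0.23 (adjusted p = 0.0252), under the fold threshold. Its edgeR adjusted p was 0.0570 with library size only and 0.121 with the replicate block.

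Of the interferon-inducible genes of the family, PSMB10 lies alone on chromosome 16. TAP2 (chr6:32821831-32838739), PSMB8, TAP1 (chr6:32845209-32853704) and PSMB9 follow each other in the MHC, and 487 bases separate TAP1 from PSMB9, which are transcribed in opposite directions. PSME1 and PSME2 are 4402 bases apart on chromosome 14. Promoter windows from 250 bases before to 50 bases after each RefSeq start (GRCh38.p14) were given for 42 of the 48 genes. They were searched on both strands for the letters GAAA, any 2 bases, and GAAA again, the core of the interferon-stimulated response element. It was found for 7 of the 42 (16.7%: PSMA4, PSMB4, PSMB8, PSMB10, PSME1, PSME2 and PSMG4), and for 4.38% of 27305 genes with a window. Sequences of 30 bases around the match are given for PSMB8, PSMB10, PSME1, PSME2 and TAP2. For TAP1 a longer stretch follows below, because PSMB9, the gene that fell, shares its upstream bases with TAP1. PSMB8 has 2 start windows, and its match lies at the internal start, while the window of the outer start (chr6:32844630-32844929) held none. Each sequence is written 5′ to 3′ along the strand of its gene, with the match, or its reverse complement (TTTC, 2 bases, TTTC), in capitals.
PSMB8 (chr6:32844032-32844061, minus strand, bases -4 to 6 from the internal start): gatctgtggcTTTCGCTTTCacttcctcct
PSMB10 (chr16:67936852-67936881, minus strand, bases -21 to -12): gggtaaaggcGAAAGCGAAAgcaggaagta
PSME1 (chr14:24136189-24136218, plus strand, bases 6 to 15): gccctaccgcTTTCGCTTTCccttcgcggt
PSME2 (chr14:24146619-24146648, minus strand, bases -28 to -19): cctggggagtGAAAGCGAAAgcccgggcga
TAP2 (chr6:32838778-32838807, minus strand, bases -58 to -49): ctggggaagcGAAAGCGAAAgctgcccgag

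The PSMB9 window (chr6:32853942-32854241) held no match, which says only that these letters are not in that stretch. The window of the outer TAP1 start held 2 overlapping matches, at -134 to -119 from that start, in the bases that lie between the genes. The window of an internal TAP1 start (chr6:32852712-32853011) held none. The 250 bases before the TAP1 start (chr6:32853705-32853954, minus strand, the matches in capitals) are given because they fill the TAP1 side of the interval that both genes start from.
TAP1 upstream: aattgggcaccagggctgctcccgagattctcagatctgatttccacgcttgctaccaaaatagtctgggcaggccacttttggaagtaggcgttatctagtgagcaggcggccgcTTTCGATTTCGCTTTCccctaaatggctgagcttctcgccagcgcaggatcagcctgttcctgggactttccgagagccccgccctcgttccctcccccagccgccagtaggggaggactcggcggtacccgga

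The letters TTC, any 3 bases, and GAA, the core of a GAS element, were in the windows of 8 of 42 proteasome genes (19%: PSMA2, PSMA8, PSMB5, PSMB8, PSMC4, PSMD2, PSMD3 and PSME3) and of 9.38% of all genes. The letters TGAC, any 3 bases, and GC are the core of the antioxidant response element that NFE2L1 and NFE2L2 bind. These letters were in the windows of 15 of 42 proteasome genes (35.7%) and of 16.1% of all genes. The 15 were PSMA4, PSMB3, PSMB9, PSMC4, PSMC5, PSMD1, PSMD3, PSMD5, PSMD9, PSMD12, PSME1, PSME2, PSME4, PSMG1 and PSMG2. Of the 7 genes with the interferon-stimulated response element letters, PSMB8, PSMB10, PSME1 and PSME2 had log2 fold changes of 0.14, 0.06, -0.29 and -0.04. PSMA4, PSMB4 and PSMG4 had 0.05, 0.02 and -0.07. The matches are a description of the sequence, and their part in the fold changes was not tested.

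TAP1, the peptide transporter subunit beside PSMB9, fell as well. It stood at 31.7 and 29.7 CPM in sgNeg and at 23.4 and 25.3 CPM in sgNPM1A, with no overlap (log2 fold change -0.34, SE 0.090, edgeR adjusted p = 0.0183). The log2 PSMB9 to TAP1 ratio, chosen after the values were seen, was 0.26 and 0.64 in sgNeg and 0.38 and 0.13 in sgNPM1A (difference -0.19, exact permutation p = 0.667), so it overlapped between the conditions. TAP2, beside PSMB8, stood at 42.3 and 40.3 CPM in sgNeg and at 35.6 and 30.8 CPM in sgNPM1A (log2 fold change -0.32, adjusted p = 0.0256), a fold of 0.804 just short of the threshold. TAP2, TAP1 and PSMB9 were thus lower in both sgNPM1A libraries, and PSMB8 between them was not.

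The class I presentation list, which holds genes of class I antigen processing and presentation, moved in both directions. Of its 16 genes 4 rose and 2 fell, with a median of 0.05, where 10.5% of all tested genes were called higher and 10.3% lower. Those that rose were NLRC5, the transactivator of class I genes (log2 fold change 0.50, adjusted p = 0.000626), HLA-B (0.47, adjusted p = 0.000354), HLA-C (0.39, adjusted p = 0.00125) and the light chain B2M (0.38, adjusted p = 0.00238). TAP1 and the peptidase ERAP2 (-0.40, adjusted p = 0.0214) fell. The class I chains were thus higher in the libraries in which PSMB9 and TAP1 were lower.

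Among 35 other interferon-regulated genes, 30 were tested, 16 fell and 2 rose, with a median of -0.46, where 10.3% of all tested genes were called lower and 10.5% higher. IRF1, a transcription factor, stood at 78.5 and 90.4 CPM in sgNeg and at 45.2 and 39.2 CPM in sgNPM1A, with no overlap. It fell by 1.00 on the log2 scale (SE 0.095, edgeR adjusted p = 1.93e-05). The part of IRF1 or of NLRC5 in the PSMB9 and TAP1 levels was not tested. On this list the 2 that rose, named after their values were seen, were STAT2 (0.59) and IRF8 (0.80). The summed CPM of the list was 1359 and 1366 in sgNeg and 1659 and 1680 in sgNPM1A, and IRF8 alone held 614 to 1124 CPM of it. The 5 inducible proteasome genes, with a median of -0.04 and 1 called lower, are given beside these lists for their values, and the difference between the lists was not tested.

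**Figure D5:**
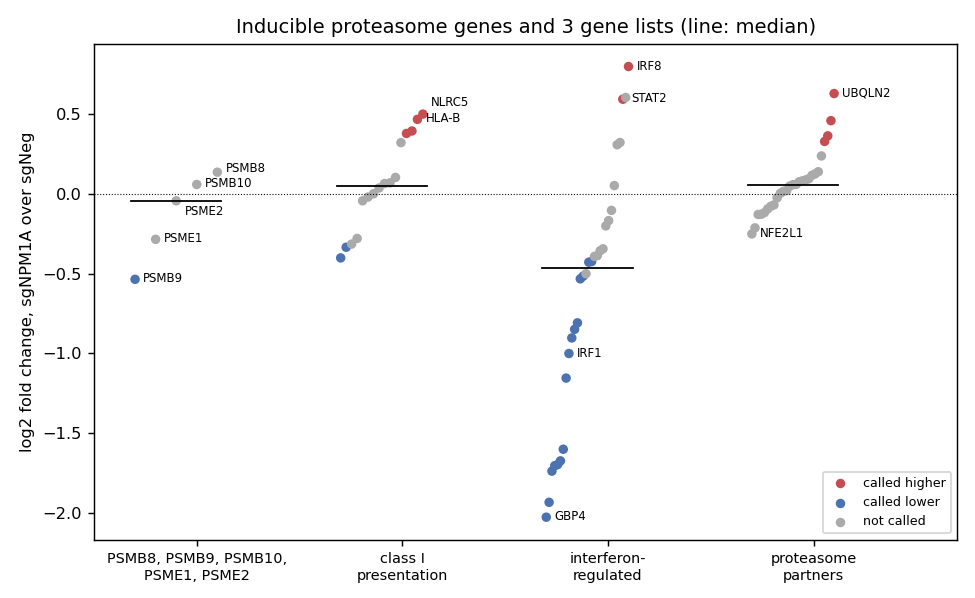
Log2 fold change, sgNPM1A over sgNeg (y axis), of the 5 interferon-inducible proteasome genes and of the tested genes of 3 lists, each point a gene and each line a median. The medians are -0.04, 0.05, -0.46 and 0.06 from left to right, and PSMB9 is the lowest of the 5 inducible proteasome genes.

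Proteins that work with the proteasome under other symbols had a median log2 fold change of 0.06 over 27 genes. Of these 4 rose and none fell past the fold threshold, where 10.5% of all tested genes were called higher and 10.3% lower. Those that rose were UBQLN2, a shuttle for ubiquitinated proteins (log2 fold change 0.63, adjusted p = 0.00310), PAAF1, a chaperone of the 19S ATPase ring like PSMD10 (0.46, adjusted p = 0.00349), ECPAS, which binds the 26S proteasome (0.36, adjusted p = 0.00496), and the glycanase NGLY1 (0.33, adjusted p = 0.0106). PAAF1 stood at 20.9 and 21.2 CPM in sgNeg and at 30.2 and 27.7 CPM in sgNPM1A, with no overlap. POMP, the maturation protein of the core, had 0.12 (adjusted p = 0.221). NFE2L1, the transcription factor that raises proteasome genes when the protease is inhibited, had -0.25 (adjusted p = 0.0242) under the fold threshold, and NFE2L2 had -0.21 (adjusted p = 0.0568). NFE2L1 stood at 167 and 151 CPM in sgNeg and at 131 and 136 CPM in sgNPM1A. Both libraries with sgNPM1A were below both sgNeg libraries. The part of NFE2L1 in the proteasome results was not tested.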

How the data were processed

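RNA-Seq of OCI-AML3 cells was analysed, with 2 sgNeg and 2 sgNPM1A libraries grouped by the labels. The authors mapped the reads to hg38 with STAR, and the deposited values are raw counts per Ensembl gene, without normalization. The STAR version, the counting program, its strand setting and the annotation release are not given in the sources used here. Symbols were matched by Ensembl identifier, positions and promoter windows come from RefSeq (GRCh38.p14), and gene type, exon length and shared 50-base words from GENCODE transcripts. The counts were tested with edgeR 4.0.16 in R 4.3.3 (filterByExpr with a minimum count of 10, TMM, robust quasi-likelihood F test, two-sided, Benjamini-Hochberg adjustment over 15718 genes). The factors were between 0.985 and 1.015 and the common biological coefficient of variation was 0.0619. Ratios used a prior count of 2 and an exact permutation test over the libraries. The fit was tested on simulated counts with a common variation for all genes. It found 78 of 100 genes changed by a fold of 1.5 and 94 of 100 changed by a fold of 2, with 6 false calls. Smaller folds, such as those of the proteasome genes, were not simulated.

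Values in every library are given for called genes, PSMB5 to PSMB10, PSME1, PSME2, untested genes and selected list genes (NPM1, TAP1, TAP2, IRF1, PAAF1 and NFE2L1). Of the genes on the lists, 1 is not reported here. The genes, lists and rules were chosen with earlier results of these data known. Alternatives were DESeq2 1.42.0, limma 3.58.1 trend on quantile-normalized log2 CPM, RLE factors, library size only, no filter, at least 10 counts in every library, no fold threshold, a prior count of 0.5, the replicate block and leaving out each library. A crossed block and the PSME1 to PSME2, PSMB9 to TAP1 and PSMB9 to PSMB8 ratios were added after the data were seen. The mean log2 PSMB9 to PSMB8 ratio was -1.35 in sgNeg and -2.02 in sgNPM1A (difference -0.66, exact permutation p = 0.333, the smallest possible here). Pseudogene rows of these genes (44) held 0.0855% to 0.114% of the number of counts on the genes. The table held 0 rows with an ERCC spike-in name. The floor of 3 counts covers counting error only, while standard errors and SDs cover the spread between libraries.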

Additional observations from a re-analysis of the deposited data

How the results depend on the processing

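All 4 calls (2 higher, 2 lower) were made by DESeq2, limma-trend, RLE factors, library size only, no filter on low counts and the replicate block. With at least 10 counts in every library 1 gene was called lower, since PSMB5 fell short of the fold threshold. With no fold threshold 8 were called higher and 3 lower. Leaving out 1 library at a time, the group with 1 library being assumed to vary like the other, gave 0 to 3 called higher and 1 to 3 called lower, and over all genes 1224 to 1574 higher and 1166 to 1571 lower against 1653 and 1619 with all libraries. The ratio differences ranged from 0.38 to 0.53 for PSMB8 to PSMB5, from -0.80 to -0.56 for PSMB9 to PSMB6 and from -0.28 to -0.14 for PSMB10 to PSMB7. The log2 fold change of PSME2, -0.04 with all libraries, ranged from -0.095 to 0.0087 with 1 library left out and turned positive without sgNeg replicate 2 (adjusted p = 0.934). Over 10 genes under 12 alternatives each, 106 values kept their direction and side of the adjusted p threshold, 11 lost it and 2 gained it. The 8 genes higher by adjusted p at any fold numbered 4 with DESeq2, 6 with limma-trend, 3 with library size only, and 1 and 0 without sgNPM1A replicate 1 and 2. The deviations of same-numbered libraries correlated at -0.130 over 15718 genes and at -0.523 over the 8856 genes with a mean above 10 CPM, and nothing states that the numbers pair them. With the replicate block, which rests on 1 residual degree of freedom per gene, 2 proteasome genes were called higher and 2 lower, 1637 and 1604 of all genes, and the number of proteasome genes higher by adjusted p at any fold was 2. With the numbers crossed, 2 and 2 were called, 1955 and 1918 of all genes, and 15 were higher and 4 lower by adjusted p at any fold. Counting error is largest for PSMA2, PSMA6 and PSMD9, at 100 to 192 counts per library.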
